A study of Homo sapiens with 82 samples.

Results

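Persistent LXRB sites without PPARG are places in the HT29 genome where the liver X receptor beta (LXRB, the product of NR1H2) was found by ChIP-seq after both 2 and 48 hours of the LXR agonist GW3965, and where no PPARG peak was called. Peaks of the 2 replicates that shared 1 bp or more were merged into 1 site. Of 3881 LXRB sites at 2 hours, 3373 overlapped an LXRB site at 48 hours. Of these persistent sites, 2765 overlapped a peak in at least 1 of the 4 PPARG libraries and 608 overlapped none. The 608 sites were 15.7% of all LXRB sites at 2 hours and 18.0% of the persistent ones. The sites were selected on the LXRB and PPARG peaks themselves, so their LXRB scores and their lack of PPARG peaks are given below as descriptions without a test.

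HT29 is a human colorectal adenocarcinoma cell line. LXRB was precipitated as the endogenous protein after GW3965 at 10 µM for 2 or 48 hours, and PPARG as the endogenous protein after the PPARG agonist rosiglitazone at 10 µM for the same times. LXRA (the product of NR1H3) was a Flag-tagged transgene in HT29 cells selected with G418, precipitated through its tag after GW3965 at 10 µM for 2 or 48 hours. JunD was assayed in cells given the solvent DMSO. Acetylated lysine 27 of histone H3 (H3K27ac) and RNA polymerase 2 (RNAP2) were assayed with DMSO, whose labels give no hour, and with GW3965 or rosiglitazone at 10 µM for 24 and 48 hours. Each of these 17 groups held 2 libraries. LXRB, LXRA and PPARG peaks of vehicle-treated cells were not analysed here, so binding that needs the agonist and binding that does not cannot be told apart. The agonist also differed between the LXR and the PPARG libraries.

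LXRs are nuclear receptors that respond to oxysterols, pair with the retinoid X receptor and bind DNA at direct repeats of a shared half-site. They are best known for turning on genes of cholesterol efflux and lipid synthesis. PPARG, another partner of the retinoid X receptor, responds to fatty acids and is expressed in colonic epithelium. H3K27ac marks active promoters and enhancers, RNAP2 marks transcribed or poised DNA, and JunD is a subunit of the AP1 transcription factor.

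The depth of the ChIP libraries is unknown, since the files list called peaks with a MACS score of at least 100 and no read counts. Peak lists held 4555 to 14788 LXRB peaks, 18436 to 30953 LXRA peaks, 8933 to 24039 PPARG peaks and 11069 to 13027 JunD peaks per library. The 2 libraries of a group often differed: 7583 against 4555 LXRB peaks at 2 hours, and 30953 against 19357 LXRA peaks. A site without a peak is therefore one below the calling threshold in that library, not one shown to be unbound. The RNA-seq of the same study held 32 libraries with 21044798 to 51332656 counts each. The cells had been given DMSO, GW3965, rosiglitazone or another LXR agonist, T0901317, for 24 or 48 hours. Over all of these libraries, NR1H2 had 45.9 to 69.97 CPM (counts scaled to the library total) and NR1H3 70.8 to 256. PPARG had 29.2 to 86.5 and JUND 89.8 to 351. These ranges pool all treatments and times. At 48 hours the mean of NR1H3 was 78.4 CPM with DMSO and 239 with GW3965. The 6 colonic epithelial markers (EPCAM, CDX2, VIL1, CDH17, KRT20 and LGALS4) were detected in every library. The leukocyte marker PTPRC did not exceed 0.112 CPM and VIM did not exceed 0.323, while COL1A1 reached 8.66. In such bulk libraries, fewer cells of a type and less RNA per cell cannot be told apart.

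The 608 sites held most of the strongest LXRB peaks. MACS gives each peak a score that grows with the evidence for enrichment. At 2 hours, the median LXRB score of the 608 sites was 383 in replicate 1 and 387 in replicate 2, against 247 and 178 at persistent sites with PPARG. At 48 hours it was 468 and 567, against 328 and 349. In all 4 libraries the median of the sites without PPARG was the higher. Of the 100 LXRB sites with the highest mean score at 2 hours, 72 belonged to the 608 and 28 were persistent sites with PPARG. A score of at least 1000 in all 4 LXRB libraries was found at 178 of the 608 sites (29.3%) and at 77 of the 2765 sites with PPARG (2.78%). The LXRB scores of the 608 sites ran from 100.2, just above the threshold, to 3233.1. A score of exactly 3100 was shared by 38 to 71 peaks in each LXRB library.

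Most of the 608 sites stood at a higher LXRB percentile at 48 hours than at 2 hours (476 sites, 78.3%), by a median of 2.17 points and an upper quartile of 14.4. The sites were selected for LXRB peaks at both times, and many top scores were tied, so these values are descriptions. The mean percentile of its LXRB score within its libraries had a median of 85.5 at 2 hours and 90.3 at 48 hours. Over the 608 sites, the percentiles at the 2 times had a Spearman correlation of 0.88. Persistent sites with PPARG rose from a median percentile of 61.8 to 81.3, with a correlation of 0.55 over 2765 sites. These percentiles are relative to each library's own peak list, which was longer at 48 hours.

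The 608 sites had a median width of 1114 bp (454 to 4673). They were on every chromosome from 1 to 22 and on X. Chromosome 19 held 59 of them, which was 37.6% of its LXRB sites at 2 hours, and chromosome X held 35, or 34.0% of its sites. On chromosome 13 the 608 sites were 5.84% of the LXRB sites (8 of 137). Only 24 of the 608 had another member of the set within 10000 bp. The median distance to the nearest PPARG peak was 25790 bp, with 35 sites (5.76%) within 1000 bp and 184 (30.3%) within 10000 bp. The sites just inside the rule were chr17:7589103-7590448, chr11:840793-841765 and chr5:138088396-138089416 (hg19), whose nearest PPARG peaks lay 19, 69 and 161 bp away. The sites just outside it were chr3:48699934-48700780, chr4:183064766-183065649 and chr16:87328679-87329531, which overlapped a PPARG peak by 35, 50 and 174 bp. Genes around the sites and their sequences were not analysed here.

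LXRA was the first factor that set these sites apart. LXRA and LXRB share their ligands and recognise the same DNA element. An LXRA site, present in both replicates, was found at 184 of the 608 sites at 2 hours (30.3%, 95% Wilson interval 26.7 to 34.0) and at 208 at 48 hours (34.2%, 30.5 to 38.1). Over all 3881 LXRB sites of 2 hours the shares were 81.5% and 82.5%. At persistent sites with PPARG they were 93.2% (92.2 to 94.0) and 95.6% (94.8 to 96.3). With PPARG required as a site of both replicates, the 943 sites without it had LXRA at 46.0% and 50.5%. The intervals cover counting over sites only, and sites are not replicates of a condition.

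Single libraries gave the same order. In the 2-hour libraries LXRA peaks lay at 53.0% and 30.8% of the 608 sites, and in the 48-hour libraries at 34.4% and 53.6%. In persistent sites with PPARG the same 4 libraries gave 97.3%, 93.2%, 95.8% and 98.4%. The difference, 44.4 to 62.4 percentage points, was larger than the spread between replicates in each pair. The higher share among the 608 sites always came from the library with the longer LXRA peak list. Late LXRB sites were sites of 48 hours that overlapped no 2-hour site of both replicates and no PPARG peak (n = 1343). Of these, 286 (21.3%) had a 2-hour LXRB peak in at least 1 library. The late sites stood between the 2 persistent sets, at 65.2% and 38.1% at 2 hours and at 49.0% and 71.9% at 48 hours. They were 7.37 to 18.3 points above the 608 sites in the 4 LXRA libraries.

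JunD gave the same picture without an agonist. JunD sites overlapped 90 of the 608 sites (14.8%, 12.2 to 17.8), against 60.9% of all LXRB sites of 2 hours and 74.9% (73.3 to 76.5) of persistent sites with PPARG. The share was 26.1% of the 943 sites left when PPARG had to be a site of both replicates, and 22.9% of the 870 left when it needed a score of at least 200. By library the share was 17.6% and 16.4% at the 608 sites, 77.6% and 80.0% at persistent sites with PPARG, and 28.5% and 28.7% at late sites without PPARG. All of these sets were counted in the same 2 JunD libraries, and their shares did not overlap. Among the 608 sites, those with JunD carried an LXRA site at 2 hours in 41.1% of cases (37 of 90), and those without any JunD peak in 27.7% (135 of 488). Where JunD peaks did occur at the 608 sites they were not weak, with median percentiles of 77.6 and 69.7 in their libraries, against 77.8 and 80.2 at persistent sites with PPARG.

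**Figure D1:**
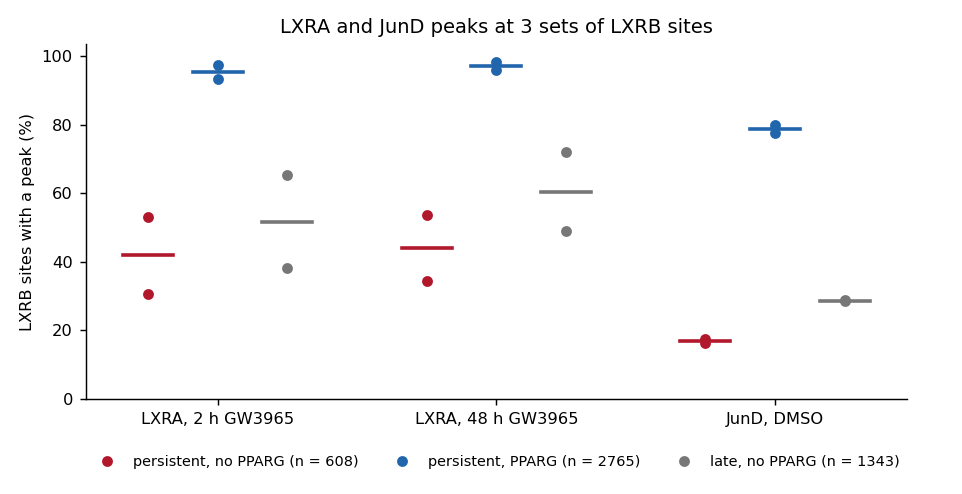
Share of LXRB sites (%, y axis) with an LXRA peak after 2 or 48 h of GW3965 or a JunD peak in DMSO, for persistent sites without PPARG, persistent sites with PPARG and late sites without PPARG. Points are the 2 libraries of each group and bars their means. Persistent sites without PPARG lie at 30.8 to 53.6% for LXRA and at 16.4 and 17.6% for JunD, below the other sets in every library.

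The shares with LXRA and JunD were also counted by LXRB score, which the choice of sites had used, so they are descriptions. All 3881 LXRB sites of 2 hours were ranked by mean score and cut into 5 quintiles, of which the strongest held 305 of the 608 sites and 469 sites with PPARG. In that strongest quintile, LXRA sites of 48 hours lay at 28.2% of sites without PPARG (86 of 305, 23.4 to 33.5) and at 89.1% of those with PPARG (418 of 469, 86.0 to 91.6). In the weakest quintile the shares were 47.4% (36 of 76, 36.5 to 58.4) and 94.9%. For JunD the strongest quintile gave 8.52% (26 of 305) and 72.7% (341 of 469). The sites without PPARG stayed under the sites with PPARG in each of the 5 quintiles for both factors.

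**Figure D2:**
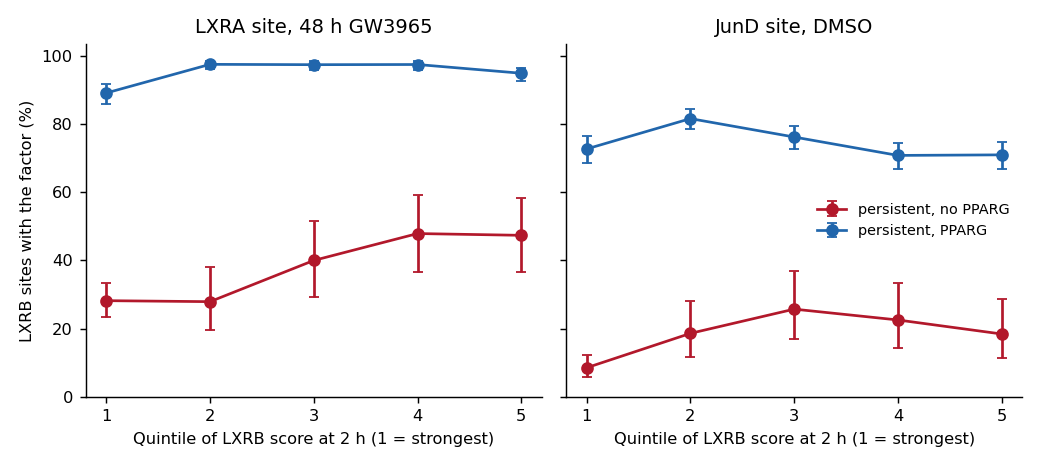
Share of LXRB sites (%, y axis) with an LXRA site after 48 h of GW3965 (left) or a JunD site in DMSO (right), by quintile of the mean LXRB score at 2 h (x axis, 1 is the strongest). Points are shares over sites and bars are 95% Wilson intervals. Persistent sites without PPARG go from 28.2% in the strongest to 47.4% in the weakest quintile for LXRA.

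The LXRA peaks at the 608 sites fell into a weak majority and a strong minority. An LXRA site was present at both times at 155 of them (25.5%) and at 1 time at 82 (13.5%). Another 151 (24.8%) had LXRA peaks in unmatched libraries only, and 220 (36.2%) had no LXRA peak in any of the 4 libraries. Among persistent sites with PPARG, 23 (0.832%) had no LXRA peak. At the 155 sites, the median LXRA score was 630 and 301 in the 2-hour libraries and 399 and 579 in the 48-hour libraries. At the 82 sites it was 145 to 237, over the sites with a peak. At the 151 sites, replicate 1 of 2 hours and replicate 2 of 48 hours had 101 peaks each, with medians of 138 and 140. Replicate 2 of 2 hours had 1 peak there, with a score of 107, and replicate 1 of 48 hours had 4, with a median of 143. The LXRB score was lowest at the 155 sites, with a 2-hour median in replicate 1 of 257 there and 318 at the 82 sites. It was highest, at 821, at the 151 sites with unmatched LXRA peaks, and 411 at the 220 sites with none.

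The sites with the strongest LXRB peaks and those with the strongest LXRA peaks were almost separate. An LXRA score of at least 1000 in all 4 LXRA libraries was found at 45 of the 608 sites, and 178 had an LXRB score of at least 1000 in all 4 LXRB libraries. The sets shared 2 sites, which was 4.44% of the former and 1.12% of the latter. Among persistent sites with PPARG, 400 sites passed for LXRA, 77 for LXRB and 18 for both, which was 4.5% of the strong LXRA sites and 23.4% of the strong LXRB sites. Across sites, the mean 2-hour scores of LXRB and LXRA had a Spearman correlation of -0.18 over the 608 sites and of 0.38 over the 2765 sites with PPARG. Sites of 1 set share the same 4 libraries, so these correlations are descriptions only.

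The 10 sites with the highest LXRB percentile in their lowest library were taken from 18 that tied at percentile 99.5, the order among them being set by the mean percentile and then by position. LXRB scored exactly 3100 in all 4 libraries at 9 of the 10. At the tenth, chr11:125932609-125933597, LXRB scored 3149 and 3100 at 2 hours and 3146 and 3100 at 48 hours. LXRA called there 1 peak in 4 libraries, with a score of 106. At chr12:110436314-110437600, LXRB scored 3100 in all 4 libraries and LXRA had no peak. At chr1:27816236-27817420, LXRB again scored 3100 in all 4, while LXRA scored 450.2 and 114 at 2 hours and 101 and 199.9 at 48 hours. That 450.2 was the highest LXRA score at any of the 10 sites. RNAP2 had a peak in all 10 of its libraries at each of the 10 sites, and H3K27ac at 9 of them. JunD sites lay at 2 of the 10.

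H3K27ac was common at the 608 sites before any agonist. In DMSO an H3K27ac site lay at 456 of them (75%, 71.4 to 78.3), against 69.4% of all LXRB sites of 2 hours and 71.3% (69.6 to 72.9) of persistent sites with PPARG. With GW3965 the share was 72.7% (69.0 to 76.1) at 24 hours and 73.8% (70.2 to 77.2) at 48 hours, against 68.8% and 76.7% of all LXRB sites of 2 hours. With rosiglitazone it was 72.0% (68.3 to 75.5) and 75% (71.4 to 78.3), against 79.2% and 80.0%. The 2 libraries of a group are too few for a permutation test to pass 0.05, since 2 against 2 cannot give a two-sided p below 0.33. The means of the GW3965 libraries differed from the DMSO mean by -0.082 points at 24 hours and 1.07 points at 48 hours, with an exact two-sided permutation p of 1 for each. For rosiglitazone the differences were -3.95 points (exact permutation p = 0.33) and -2.22 points (exact permutation p = 1).

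RNAP2 was present at a similar share of the 608 sites. In DMSO an RNAP2 site lay at 479 of them (78.8%, 75.4 to 81.8), against 93.3% of all LXRB sites of 2 hours. With GW3965 it was 73.2% (69.5 to 76.6) and 80.8% (77.4 to 83.7) at 24 and 48 hours, against 88.5% and 87.6%. With rosiglitazone it was 71.7% (68.0 to 75.1) and 69.7% (66.0 to 73.3), against 88.9% and 85.1%. Every RNAP2 library called fewer of the 608 sites than of the persistent sites with PPARG, by 11.7 to 24.1 percentage points over the 10 libraries. Against late LXRB sites without PPARG the difference ran from -3.99 to 4.46 points and changed sign among libraries. H3K27ac behaved differently against the late sites, with 9.14 to 11.7 points more of the 608 sites called in each of the 10 libraries.

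The gap in H3K27ac between persistent sites without and with PPARG depended on the library. The 2 sets were split by PPARG peaks of rosiglitazone-treated cells, so the gap with rosiglitazone is not independent of the choice of sites. Persistent sites with PPARG had H3K27ac at 73.6% and 79.2% in DMSO and at 85.4% to 88.4% with rosiglitazone. The 608 sites had it at 74.2% and 81.4% in DMSO and at 73.8% to 76.5% with rosiglitazone. In the 2 DMSO libraries the share of the 608 sites was 0.579 and 2.21 points above that of persistent sites with PPARG. In the 4 rosiglitazone libraries it was 10.9 to 12.4 points below. The 4 GW3965 libraries gave 1.06, -4.00, 1.13 and -11.8 points, so their range overlapped that of rosiglitazone. With both times joined, an exact permutation test of 4 rosiglitazone against 4 GW3965 libraries gave a difference of -8.31 points (two-sided p = 0.0857, adjusted p = 0.229 over 4 such tests by the Benjamini-Hochberg method). The share of the 608 sites itself differed by -3.58 points for H3K27ac (exact permutation p = 0.429, adjusted p = 0.429) and by -3.66 points for RNAP2 (exact permutation p = 0.143, adjusted p = 0.229). The RNAP2 gap between the persistent sets differed by -4.50 points (exact permutation p = 0.171, adjusted p = 0.229). Joining the times was chosen after the data were seen, and none of the 4 differences passed 0.05. Replicate 2 of GW3965 at 48 hours had the lowest GW3965 gap. Without it, the first of these differences was -11.1 points with an exact permutation p of 0.0286, the smallest that 4 against 3 libraries allow. Leaving out any other single library gave an exact permutation p of 0.0857 to 0.114. The sets were split on PPARG peaks of rosiglitazone-treated cells, so no p of this gap can decide whether the drugs differ.

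**Figure D3:**
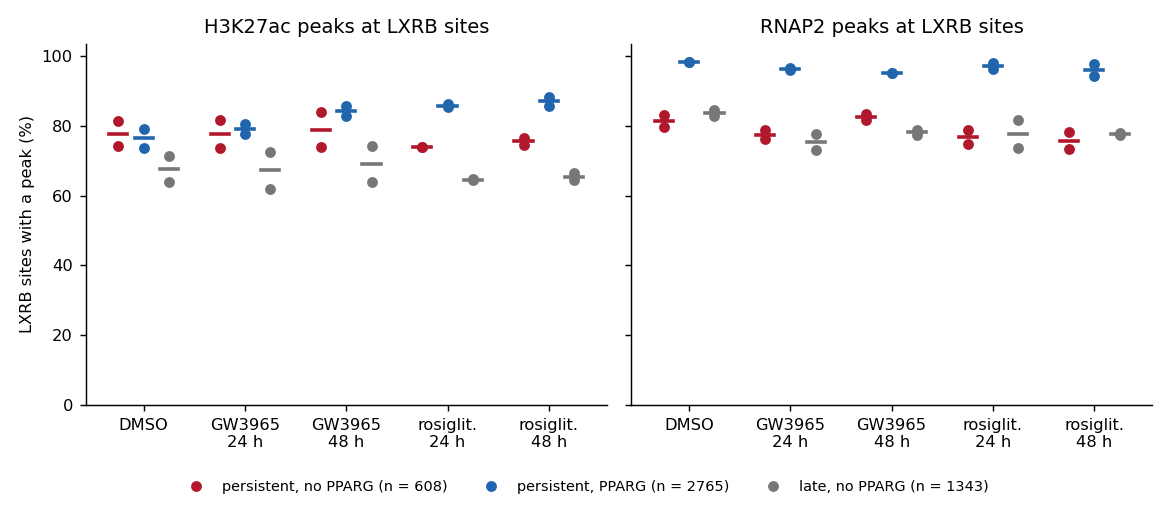
Share of LXRB sites (%, y axis) with an H3K27ac peak (left) or an RNAP2 peak (right) in each condition (x axis), for the same 3 sets of sites. Points are the 2 libraries of each group and bars their means. Persistent sites without PPARG stay between 73.7 and 83.9% for H3K27ac, and lie under the sites with PPARG in all 10 RNAP2 libraries.

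Each mark was constant at most of these sites. An H3K27ac peak was called in all 10 libraries at 368 of the 608 sites (60.5%, 56.6 to 64.3), in 1 to 9 libraries at 167 and in none at 73 (12%). An RNAP2 peak was called in all 10 at 365 sites (60.0%, 56.1 to 63.9), in 1 to 9 at 190 and in none at 53 (8.72%). Persistent sites with PPARG had H3K27ac in all 10 libraries at a like share, 60.2% (58.3 to 62.0), and in none at 4.99%. They had RNAP2 in all 10 libraries at 85.8% (84.4 to 87.0) and in none at 1 of 2765 sites. All 20 libraries had a peak at 286 of the 608 sites (47.0%) and no library at 34 (5.59%). At persistent sites with PPARG these shares were 56.1% and 0%.

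The sites with all 20 peaks carried the higher LXRB scores. Their median LXRB score was 991 and 947 in the 2-hour libraries and 1085 and 1297 in the 48-hour libraries. The 34 sites with neither mark had medians of 274 and 294 at 2 hours and 287 and 251 at 48 hours. LXRA sites of 48 hours lay at 39.2% of the former (112 of 286) and at 23.5% of the latter (8 of 34). JunD lay at 50 of the 286 sites and at 0 of the 34, which allows a share of up to 8.82% by a floor of 3 sites. The 178 sites with strong LXRB peaks in all 4 libraries had H3K27ac sites at 94.9% and RNAP2 sites at 95.5% in DMSO, and 136 of them had a peak in all 20 libraries.

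The marks were centred on the LXRB sites. At the centre of the 608 sites, H3K27ac peaks of DMSO covered 76.5% of sites (72.4% and 80.6% in the 2 libraries), and 5000 bp to either side they covered 7.98% and 8.47%. RNAP2 covered 80.8% at the centre (78.9% and 82.7%) and 9.29% and 11.4% at these distances. At persistent sites with PPARG the H3K27ac peaks were wider, with medians of 2945 and 3448 bp in the DMSO libraries against 2269 and 2758 bp at the 608 sites.

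By a strict rule, few of the 608 sites gained or lost a mark. A gain was a peak in both treated libraries and in neither DMSO library, and a loss was the reverse. With GW3965, H3K27ac was gained at 7 of the 519 sites with any peak in the libraries compared at 24 hours (1.35%) and at 17 of 527 at 48 hours (3.23%). Of all genomic regions with a peak in those libraries, 2.62% and 8.3% were gained. It was lost at 0 sites at 24 hours and 1 site at 48 hours, against 0.909% and 1.09% of all regions. The 7 and 17 gained sites shared 5. These counts rested on the rule. When a site of both replicates in 1 group and none in the other was counted, H3K27ac was gained at 26 and 40 sites. It was then lost at 40 and 47, so losses outnumbered gains. No share over all regions is given for that rule, so these counts do not set the 608 sites apart. Replicate 2 of GW3965 called fewer of the 608 sites than replicate 1, at 73.7% against 81.7% and at 73.8% against 83.9%. Without replicate 1 of GW3965, the losses were 39 and 47, and without replicate 2 of DMSO the gains were 28 and 39. These too stand without a share over all regions.

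RNAP2 was gained with GW3965 at 10 of 537 sites at 24 hours (1.86%) and at 19 of 540 at 48 hours (3.52%), 7 of them at both times. The shares over all regions were 0.83% and 4.97%. It was lost at 16 sites (2.98%) and 15 sites (2.78%), 8 of them at both times, against 8.11% and 11.6% of all regions. At persistent sites with PPARG, RNAP2 was gained at 0.363% and 0.400% and lost at 0.871% and 2.36% of sites tested. The share lost was under that of all regions at both times in both sets. Counted by sites of both replicates, RNAP2 was gained at 20 and 38 and lost at 54 and 26 of the 608 sites, again without a share over all regions.

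With rosiglitazone, H3K27ac was lost at 18 sites at 24 hours (3.53%) and 11 at 48 hours (2.16%), 7 of them at both, against 3.42% and 3.14% of all regions. It was gained at 3 (0.588%) and 4 sites (0.786%), where 8.98% and 8.05% of all regions were gained. Persistent sites with PPARG gained it at 6.93% and 6.98% and lost it at 0.95% and 0.434% of sites tested. RNAP2 was gained with rosiglitazone at 8 (1.495%) and 5 sites (0.943%) and lost at 14 (2.62%) and 13 sites (2.45%). Over all regions 5.68% and 3.09% gained it and 4.1% and 5.38% lost it. GW3965 and rosiglitazone were set against the same DMSO libraries, so their gains and losses are not independent of each other. Counted by sites of both replicates, rosiglitazone gave H3K27ac gains at 16 and 23 and losses at 34 and 23 sites. RNAP2 gains were then at 16 and 11 and losses at 59 and 66, and no share over all regions is given beside these counts.

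Most of the sites that gained a mark with GW3965 had an LXRA site at both times. H3K27ac or RNAP2 was gained with GW3965 at 24 or 48 hours at 36 of the 608 sites (5.92%). At persistent sites with PPARG this share was near, at 139 of 2765 (5.03%). Shares over all regions are given above by mark and time only. At 25 of the 36 sites LXRA had a site at both times. By mark, 16 of the 19 sites that gained H3K27ac and 14 of the 22 that gained RNAP2 were among the 155 sites with LXRA at both times. Of these 155, 3.87% gained H3K27ac at 24 hours and 9.68% at 48 hours, near the 2.62% and 8.3% of all regions. RNAP2 was gained at 6.45% and 7.10% of them, against 0.83% and 4.97% of all regions. The class shares count every site, while the region shares count only regions with a peak. Of the 220 sites with no LXRA peak, 1 gained H3K27ac and 7 gained RNAP2. No site of the 82 with LXRA at 1 time gained either mark. A gain needs a site with no DMSO peak, and such sites were unevenly spread. H3K27ac had no peak in either DMSO library at 27 of the 155 sites, 59 of the 220 and 9 of the 82, so that 16 of 27, 1 of 59 and 0 of 9 of those gained it. For RNAP2 these were 14 of 30, 7 of 56 and 0 of 4. The losses of RNAP2 were spread otherwise, with 3 of 23 at the 155 sites and 13 of 23 at the 220. The classes were cut after the values were seen, and no test was made of them.

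The 36 sites had modest LXRB scores and high LXRA scores. Their median of the mean 2-hour score was 230.0 for LXRB and 1480 for LXRA (no peak counted as 0), against 397 and 53.4 at the other 572 sites. Of the 608 sites, only 107 had no DMSO peak of H3K27ac and 95 none of RNAP2. Most of the other 572 could therefore not gain a given mark, and these medians are not independent of the rule. Of the 45 sites with strong LXRA peaks in all 4 libraries, 16 gained a mark with GW3965 and 5 with rosiglitazone. Among persistent sites with PPARG, 40 of the 400 sites with such LXRA peaks gained a mark with GW3965. How many of those 400 had no DMSO peak is not given here. Neither DMSO library had an H3K27ac peak at 20 of the 45 or an RNAP2 peak at 17 of them. Of the 178 with strong LXRB peaks in all 4, 1 gained a mark with GW3965 and 0 with rosiglitazone, but only 4 had no DMSO peak of H3K27ac and 5 none of RNAP2. Almost none of the 178 could gain a mark by this rule, so the counts of the 45 and the 178 are not comparable. None of the 36 had a JunD site. Of the 90 sites with JunD, however, 98.9% had an RNAP2 site and 70% an H3K27ac site in DMSO. Few of them could gain a mark by this rule, so that absence is not informative.

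**Figure D4:**
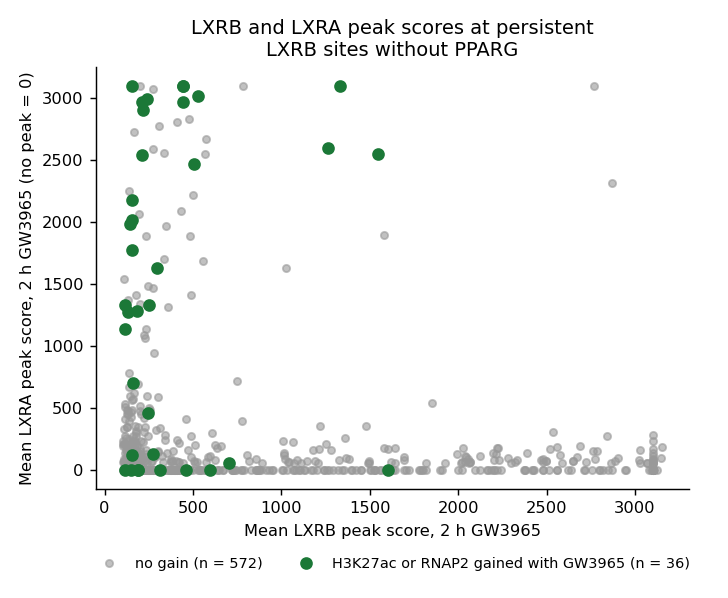
Mean MACS score of the LXRB peaks (x axis) against that of the LXRA peaks (y axis, a library without a peak counted as 0) after 2 h of GW3965, for 608 persistent LXRB sites without PPARG. Each point is a site, and the 36 green points gained H3K27ac or RNAP2 with GW3965 at 24 or 48 h. Most sites lie along 1 of the 2 axes, and most green points lie along the LXRA axis.

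By library, the 155 sites with LXRA at both times showed more peaks with GW3965 than the other conditions. H3K27ac peaks lay at 73.5% and 80.0% of them in DMSO, at 83.2% and 81.3% with GW3965 at 24 hours and at 91.6% and 87.1% at 48 hours. With rosiglitazone they lay at 74.8% and 73.5% at 24 hours and at 78.1% and 76.1% at 48 hours. The 4 GW3965 libraries did not overlap the other 6. RNAP2 peaks lay at 75.5% and 80.6% in DMSO, at 87.7% and 81.9% and then 85.8% and 86.5% with GW3965, and at 72.9% to 76.8% with rosiglitazone. Here too the 4 GW3965 libraries lay above the other 6. The 155 sites were selected on LXRA peaks of GW3965-treated cells, so these shares are descriptions. Over all LXRB sites of 2 hours, H3K27ac peaks lay at 71.4% and 76.9% in DMSO. With GW3965 they lay there at 76.0% to 82.1%, and with rosiglitazone at 80.8% to 84.0%. RNAP2 peaks lay at 94.0% and 94.6% of all these sites in DMSO, 90.0% to 92.4% with GW3965 and 87.1% to 92.2% with rosiglitazone. In the 220 sites with no LXRA peak the ranges overlapped, with H3K27ac at 62.7% and 73.2% in DMSO, 56.8% to 71.8% with GW3965 and 63.6% to 66.8% with rosiglitazone. RNAP2 lay at 66.8% and 72.3% of these in DMSO, 59.1% to 71.8% with GW3965 and 55.0% to 66.8% with rosiglitazone.

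**Figure D5:**
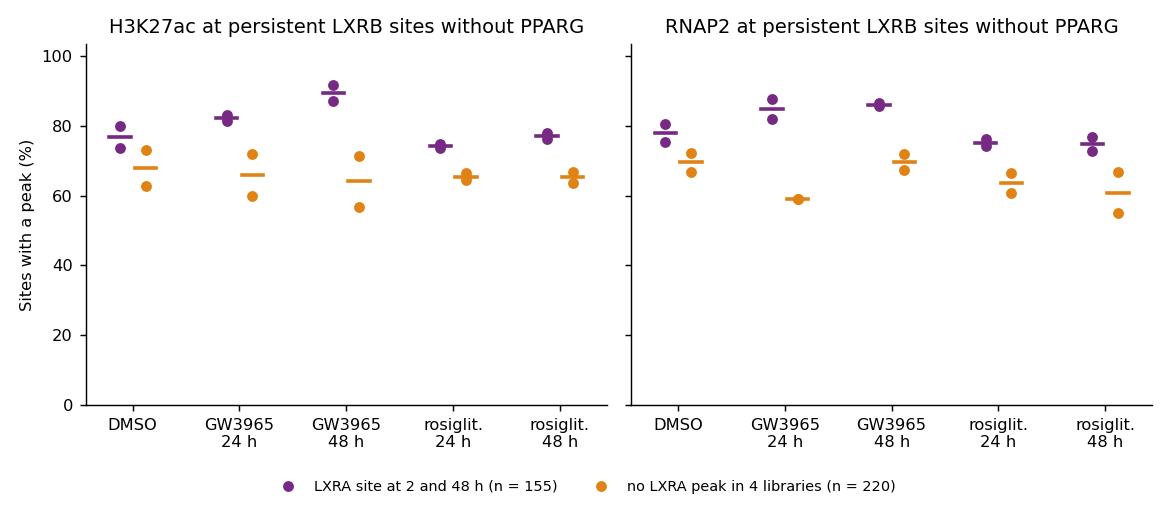
Share of persistent LXRB sites without PPARG (%, y axis) with an H3K27ac peak (left) or an RNAP2 peak (right) by condition (x axis), for the 155 sites with LXRA at 2 and 48 h and the 220 with no LXRA peak. Points are libraries and bars the means of 2. In the 155 sites the GW3965 libraries lie at 81.3% or more, above those of DMSO and rosiglitazone.

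Of the 608 sites, 5 gained H3K27ac with GW3965 at both 24 and 48 hours, and LXRA had a peak in all 4 libraries at each. At chr13:95910460-95911497, H3K27ac had no peak in DMSO, scored 333 and 1499 at 24 hours and 1130 and 839 at 48 hours of GW3965, and had no peak in the 4 rosiglitazone libraries. LXRA scored 3100 and 3100 there at 2 hours and 1790 and 2519 at 48 hours, while LXRB scored 539, 344, 410 and 293 in its 4 libraries. At chr1:222270675-222271663, H3K27ac scored 148, 195, 464 and 273 with GW3965 and RNAP2 scored 184, 172, 231 and 129. Neither mark had a peak there in DMSO, and rosiglitazone gave a single RNAP2 peak with a score of 106. That site gained both marks at both times. LXRB scored 250.2 and 235 there at 2 hours and 578 and 393 at 48 hours, and LXRA 3179, 2808, 1971 and 2379.

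At the other 3 sites that gained H3K27ac at both times, LXRA scores were also above 1000 in each library. At chr22:48650142-48650860, H3K27ac scored 133 and 147 at 24 hours and 361 and 169.9 at 48 hours of GW3965. At chr14:22658268-22658925 it scored 210.3 and 452 and then 268 and 326. At chr5:90579413-90580305 it scored 121 and 219 and then 395 and 342. None of the 3 had an H3K27ac peak in DMSO or rosiglitazone. Over all 5 sites the LXRB scores ran from 120.5 to 578 and the LXRA scores from 1028 to 3179.

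RNAP2 was gained with GW3965 at both times at 7 sites, and LXRA again had a peak in all 4 libraries at each. The 2 with the strongest LXRB peaks were neighbours on chromosome 21. At chr21:43639772-43641174, LXRB scored 1300.4 and 1363 at 2 hours and 969 and 869 at 48 hours, and LXRA scored 3100, 3100, 3116 and 3100. RNAP2 had no DMSO peak there, scored 376, 738, 1010.2 and 655 with GW3965, and 156, 102 and 159 in 3 of the 4 rosiglitazone libraries. H3K27ac was already present in DMSO, at 172 and 533. At chr21:43652971-43655804, RNAP2 had no DMSO peak, scored 365, 639, 781 and 322 with GW3965 and 106 to 252 in the 4 rosiglitazone libraries. LXRB scored 1910 and 1179 there at 2 hours and 874 and 1245 at 48 hours.

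Of the other 5, chr3:154689384-154690347 had RNAP2 scores of 343, 109, 330.4 and 305 with GW3965 and no DMSO peak. At chr1:185121071-185122023 the RNAP2 scores were 207, 130.3, 204 and 232 with GW3965, with no RNAP2 peak in DMSO or rosiglitazone. H3K27ac peaks lay there in replicate 2 of both GW3965 times only, at 243 and 411. At chr21:18807807-18808553 RNAP2 scored 375, 106, 140 and 149 with GW3965, and at chr3:153941971-153942861 it scored 123, 142, 181 and 263. The other was chr1:222270675-222271663, described above.

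RNAP2 was lost with GW3965 at both times at 8 sites, 7 of which are named here. Their DMSO peaks were weak. At chr7:100084471-100085351, RNAP2 scored 105 and 121 in DMSO, and LXRB scored 1196 and 1286 at 2 hours with no LXRA peak in any library. At chr1:204283075-204284010, RNAP2 scored 139 and 153 in DMSO, LXRB 1036 and 787 at 2 hours, and LXRA again had no peak. At chr9:35489504-35490439 RNAP2 scored 102 and 162 in DMSO and LXRA had no peak. At chr7:16955475-16956368, chr14:76177920-76178698, chr17:72732290-72733227 and chr2:1597363-1598254 the DMSO scores of RNAP2 were 120 to 201. LXRA had a peak in all 4 libraries at 2 of the 7 sites, the highest scoring 779. No site lost H3K27ac with GW3965 at both times.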

How the data were processed

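ChIP-seq peaks of HT29 cells (34 lists, 17 groups of 2) and RNA-seq counts (32 libraries) were used. According to the submitters' processing notes, reads were aligned to hg19 with Bowtie or TopHat and peaks were called with MACS, with no versions given. The deposited peak lists hold coordinates and a MACS score, whose formula is not given in the sources used here. The authors deposited RNA-seq read counts per gene, which were divided here by the library total to give CPM and were not tested. PECAM1, listed as a marker of other cells, had no row.

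Peaks were intersected at 1 bp or more in Python 3.11 code tested on simulated peaks and against bedtools. Shares carry 95% Wilson intervals, and libraries were compared by exact permutation tests. Labels do not say whether replicates were separate cultures, so p-values measure only the spread between these libraries, which may be technical. Named sites were the 10 with the highest lowest LXRB percentile, and up to 8 per direction and mark that changed with GW3965 at both times, chromosome 8 left out. The sites, classes and lists were chosen with earlier results of these data known. Coordinates are 1-based.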

Additional observations from a re-analysis of the deposited data

Results flagged for a closer look

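The RNAP2 share of the 608 sites stood on opposite sides of the DMSO mean in every library for 2 pairs of conditions. The 2 DMSO libraries themselves were at 79.6% and 83.2%, and the 48-hour GW3965 libraries, at 83.4% and 81.6%, overlapped them. Against the DMSO mean, the GW3965 libraries were at -2.63 and -5.26 points at 24 hours and at 1.97 and 0.164 points at 48 hours. The 24-hour GW3965 mean was thus -5.02 points from the 48-hour mean. At 48 hours the rosiglitazone libraries were at -3.29 and -7.89 points, and GW3965 was 6.66 points above rosiglitazone. Each difference had an exact two-sided permutation p of 0.33, the smallest that 2 against 2 libraries allow, so neither could pass 0.05. Both comparisons use the same DMSO libraries and the same 48-hour GW3965 libraries.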

How the results depend on the processing

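The number of sites moved to 372 when LXRB peaks needed a score of at least 200 and to 943 when PPARG had to be a site of both replicates. Leaving out 1 LXRB or PPARG library gave 608 to 839. Over all alternative sets the share with LXRA at 48 hours ran from 26.9% to 50.5% and with JunD from 10.2% to 26.1%. Among the 608 sites, a score of at least 200 for the other factor gave 19.9% for LXRA at 48 hours and 9.87% for JunD. It gave 65.0% for H3K27ac in DMSO, 61.2% and 59.2% with GW3965 at 24 and 48 hours, and 64.6% and 66.9% with rosiglitazone. For RNAP2 it gave 66.4%, then 55.6% and 69.7%, then 57.4% and 55.6%. An overlap of 50% of the shorter interval moved H3K27ac with rosiglitazone at 24 hours to 71.4%. The 372 sites with an LXRB score of at least 200 in all 4 libraries had JunD at 10.2%, and H3K27ac at 81.5% in DMSO, 78.8% and 80.4% with rosiglitazone. They had RNAP2 at 83.9% in DMSO, 76.6% and 84.7% with GW3965 and 74.7% with rosiglitazone at 24 hours.

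Using 1 replicate alone gave the shares between 30.8% and 53.0% for LXRA at 2 hours, 34.4% and 53.6% at 48 hours, and 16.4% and 17.6% for JunD. For H3K27ac it gave 74.2% and 81.4% in DMSO, 73.7% and 81.7% then 73.8% and 83.9% with GW3965, and 73.8% then 74.7% and 76.5% with rosiglitazone. For RNAP2 it gave 79.6% and 83.2% in DMSO, 76.2% and 78.8% then 81.6% and 83.4% with GW3965, and 74.8% and 78.8% then 73.5% and 78.1% with rosiglitazone.

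Counts of gains and losses depended on the rule. Counting sites of both replicates in 1 group and no such site in the other, H3K27ac was gained at 26 and 40 and lost at 40 and 47 sites with GW3965 at 24 and 48 hours, and gained at 16 and 23 and lost at 34 and 23 with rosiglitazone. RNAP2 was gained at 20 and 38 and lost at 54 and 26 with GW3965, and gained at 16 and 11 and lost at 59 and 66 with rosiglitazone. With present peaks needing a score of at least 200, H3K27ac was gained at 3 and 10 with GW3965 and at 1 with rosiglitazone at 48 hours, lost at 0 with GW3965 at 48 hours, and lost at 4 and 0 with rosiglitazone. RNAP2 was then gained at 2 and 6 and lost at 0 and 1 with GW3965, and gained at 0 and 1 and lost at 3 and 1 with rosiglitazone.

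Leaving out 1 library loosens the rule by construction, and no share over all regions is given beside these counts either. H3K27ac gains were then 10 to 28 and 21 to 39 with GW3965 and 4 to 22 and 5 to 20 with rosiglitazone, each highest without DMSO replicate 2, which held the longer DMSO list. H3K27ac losses were 1 to 39 and 1 to 47 with GW3965, each highest without GW3965 replicate 1, and 21 to 41 and 13 to 31 with rosiglitazone, each highest without DMSO replicate 1. RNAP2 gains were 10 to 20 with GW3965 at 24 hours (highest without GW3965 replicate 2), 21 to 37 at 48 hours (without DMSO replicate 2), and 9 to 20 and 6 to 11 with rosiglitazone (without rosiglitazone replicate 1, tied with replicate 2 at 48 hours). RNAP2 losses were 22 to 40 and 18 to 25 with GW3965 and 19 to 51 and 19 to 49 with rosiglitazone, each highest without replicate 1 of the treated group.

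The 4 differences between rosiglitazone and GW3965 kept their direction with each library left out, at -5.11 to -1.71 and -11.1 to -6.79 points for the H3K27ac share and gap, and at -4.93 to -2.52 and -5.88 to -3.16 points for RNAP2. A replicate block, in which libraries were exchanged only within a replicate number, left the H3K27ac gap at -8.31 points with an exact permutation p of 0.167, where 0.0556 is the smallest possible, and changed no call. In the 4 treated groups replicate 1 had the higher H3K27ac share in 3 and an equal one in 1, and the higher RNAP2 share in 4 of 4, while in DMSO replicate 2 had the higher share for both marks. Labels do not say that a number marks a shared batch. Results on genes near the sites and on motifs were planned and not run, as no hg19 annotation or sequence was used. A peak list shows presence above a threshold, so smaller changes in enrichment were not measurable.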
